A study of Arabidopsis thaliana with 2 samples.

Results

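The regions described here are the MYB3R3-GFP peaks whose midpoint lay inside a protein-coding gene and within 200 bp of the nearest end of a protein-coding gene. They numbered 990 of the 2931 peaks in the deposited list (33.8%, 95% Wilson interval 32.1 to 35.5%). The midpoint of a peak was the mean of its start and end, gene positions came from a RefSeq gene table of the same accession, and both ends of a gene counted alike. The position of these peaks is therefore their definition and not a result. Strand was not used, so the 5′ and 3′ ends of genes were not told apart.

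The peaks came from whole Col-0 seedlings of Arabidopsis thaliana, 9 days after germination, that expressed the MYB protein MYB3R3 as a fusion with green fluorescent protein (GFP). Chromatin from fixed nuclei was precipitated with an anti-GFP antibody and sequenced as 1 ChIP library, with 1 library of input DNA from the same line. The plants were grown in liquid medium under continuous light with no treatment. The sources used here do not give the promoter of the fusion or the state of the native MYB3R3 gene. The ChIP library was analysed as its peak list, the input was not analysed here, and the read depth behind the peaks is unknown. A single ChIP library allows no replicate error and no test between samples, so all shares and medians below describe this list. Wilson intervals cover counting error only, and peaks of a library are not replicates.

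MYB3R proteins are MYB transcription factors with 3 repeats of the MYB domain, and they are known for acting on genes that are expressed in the G2 and M phases of the plant cell cycle. MYB3R3 belongs to the members known as repressors of such genes, and MYB3R proteins occur in complexes with E2F and retinoblastoma-related proteins that resemble the DREAM complex of animals. Peaks at the edge of a gene lie where promoters, transcription start regions and transcription end regions are found.

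Most peaks just inside gene ends covered DNA on both sides of the end. This follows largely from the choice of midpoints close to an end and from the width of the peaks, and is given as a description. Of the 990 peaks, 792 (80.0%, 77.4 to 82.4%) had part of their length outside the gene that held the midpoint. The median share of the peak inside that gene was 75.3%, with quartiles of 61.2 and 94.1%. Peaks that crossed the end had a median score of 21.4, and the 198 that lay wholly inside had a median of 13.2, a split that also separates peaks by width and by distance to the end. The score is the value the authors gave each peak; the sources used here do not give its formula, and it ranks peaks within this list only. The peaks were 196 to 926 bp wide, with a median of 286 bp, against a median of 269 bp for the 1941 other peaks.

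Midpoints were densest beside the gene end itself. Counted in steps of 50 bp inward from the end, there were 331, 314, 217 and 128 midpoints, and the median scores of these groups were 20.98, 18.4, 16.6 and 16.7. The first 50 bp inside the gene thus held the most midpoints and had the highest median score of these 4 groups. Outside genes, the first 50 bp held 232 midpoints with a median score of 20.6. Per length of DNA the sides were alike: there were 87.5 midpoints per Mb in the 11.3 Mb inside genes and within 200 bp of an end, and 88.7 per Mb in the 7.72 Mb outside genes at the same distance. Median scores were 18.6 and 18.8 on the inner and outer side. At the threshold, the 4 peaks with midpoints 200 bp from the end, in SD1-29, AT1G05020, AT4G25940 and AT4G25090, had scores of 46.8, 17.5, 7.83 and 7.46. Those in THY-1 and AT1G50660, at 201 bp, were left out and had scores of 11.2 and 14.7.

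**Figure D1:**
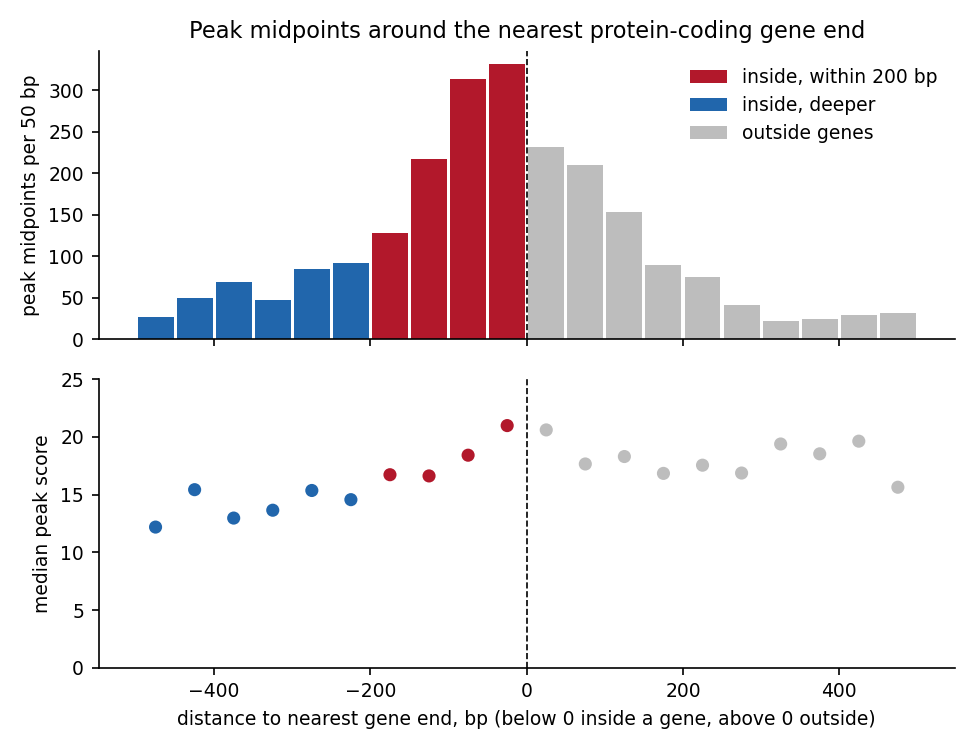
Number of peak midpoints (upper panel) and median peak score (lower panel) in steps of 50 bp by distance to the nearest protein-coding gene end, with positions inside genes below 0 and outside genes above 0. Red marks the 990 peaks just inside gene ends, which are most frequent in the first 50 bp (331 midpoints); blue marks deeper positions inside genes and grey positions outside genes.

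Peaks just inside gene ends took a larger share of the strongest peaks than of the rest. Their median score was 18.6 (quartiles 12.4 and 36.4), against 14.2 (10.7 and 22.4) for the 631 peaks deeper inside genes, 18.5 (12.8 and 30.9) for the 907 peaks outside genes within 500 bp of an end, and 16.5 (12.5 and 22.5) for the 230 peaks over 1000 bp from any gene end. The median was close to that of the peaks just outside genes, and the upper quartile was higher. A score above 100 was reached by 66 of the 990 peaks (6.67%, 5.27 to 8.39%), against 71 of the 1941 other peaks (3.66%, 2.91 to 4.59%). Over the whole list 4.67% of peaks passed this score. Among the 907 peaks outside genes within 500 bp of an end, 47 did (5.18%, 3.92 to 6.82%). That interval overlaps the one for the 990 peaks, and the highest score of the list, 749.56, was also outside genes within 500 bp of an end. None of these differences was tested.

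When all peaks were ranked by score and divided into 10 groups of equal size, the share of peaks just inside gene ends was 46.4% (40.8 to 52.1%) in the highest group of 293 peaks and 42.7% (37.1 to 48.4%) in the next. In the other 8 groups it lay between 26.3 and 34.1%. The lowest group, with scores up to 8.98, had a share of 34.0% (28.8 to 39.6%), so the share did not climb steadily over the whole range of scores. Peaks deeper inside genes took 10.9% of the highest group and 31.3% of the lowest. Peaks outside genes within 500 bp of an end took 34.5 and 23.8%, so their share was also larger in the highest group than in the lowest. Of the 10, 20, 50, 100 and 200 strongest peaks of the list, 6, 11, 20, 49 and 91 lay just inside a gene end.

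**Figure D2:**
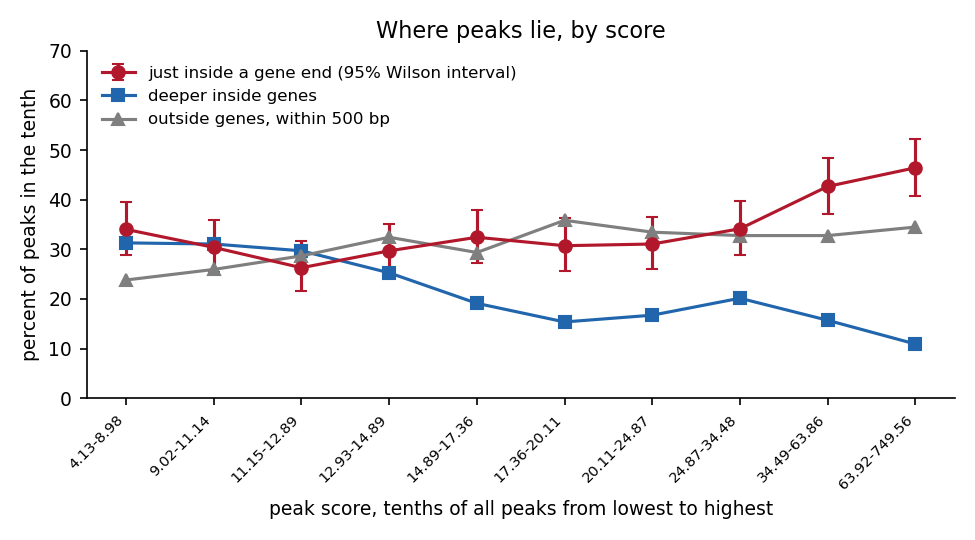
Share of peaks (percent) at 3 kinds of position in each of 10 equal groups of all peaks ranked by score, from the lowest scores on the left to the highest on the right. Peaks just inside gene ends (red circles, bars are 95% Wilson intervals) make up 46.4% of the highest group, and peaks deeper inside genes (blue squares) 10.9%; grey triangles are peaks outside genes within 500 bp of an end.

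The strongest peak just inside a gene end had a score of 652 and lay in AT2G28620 (TAIR10, chromosome 2, 12270425 to 12271044), where the midpoint was 29 bp from the end. It was followed by the peak in CYCA1;1, an A-type cyclin gene of mitosis, with a score of 568 and a midpoint 6 bp from the end (chromosome 1, 16777037 to 16777656). The peak in AT3G57060 was next with 479 (chromosome 3, 21120640 to 21121526). Each of these 3 peaks had between 51.0 and 58.7% of its length inside the gene. The rest of the 20 strongest had scores from 435 down to 171, and the 20 peaks were 416 to 926 bp wide, all wider than the median of 286 bp. At these widths a midpoint close to an end leaves part of the peak outside the gene, and all 20 crossed the end of their gene. Of the 20, 16 had their midpoint within 100 bp of an end, as did 645 of all 990.

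Only 7 of the genes that held these 20 peaks have a symbol in the gene table. Besides CYCA1;1 these were CDC6 (licensing of replication origins, score 322), RBR1 (the retinoblastoma-related protein, 263), TOPII (topoisomerase II, 262), NRAMP5 (a metal transporter family, 241), TPX2 (spindle assembly, 215) and ASY3 (an axis protein of meiotic chromosomes, 208). The loci without a symbol, after the 2 already given, were AT5G54970 (435), AT1G72250 (405), AT1G14260 (372), AT4G35750 (315), AT3G23740 (272), AT3G51280 (269.6), AT2G27980 (248), AT5G13100 (219), AT4G26960 (212), AT4G16970 (177) and AT4G09060 (171). Mitosis, replication and meiosis were thus all represented among the named ones, beside a transporter gene.

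The gene that held a midpoint was not always the one with the nearest end. In 67 of the 990 peaks the nearest end belonged to another gene. The CDC6 peak was one of them: its midpoint lay 282.5 bp inside CDC6 and 54.5 bp from an end of AT2G29679 (chromosome 2, 12689156 to 12689750). The peaks in AT4G35750 and AT4G26960 were likewise nearest to LTO1 and AT4G26965. Several gene ends could lie close together: 193 peaks (19.5%, 17.1 to 22.1%) had the ends of 2 or more protein-coding genes within 200 bp, among them the AT2G27980 peak, which also lay within 200 bp of CKS2, a gene for a small subunit of cyclin-dependent kinase complexes. Only 385 peaks (38.9%, 35.9 to 42.0%) had a single protein-coding gene with an end within 1000 bp. The median score was 19.3 for these 385 peaks and 18.3 for the other 605. Which of several neighbouring genes a peak acts on was not measured.

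The 990 peaks lay in 982 genes, which was 3.58% of the 27444 protein-coding genes, and 482 of these genes have a symbol. A single such peak was found in 974 genes and 2 such peaks in 8. Scores at the 2 ends were 19.9 and 58.2 in AT4G39380, 37.6 and 17.2 in AT3G17030, and 16.3 and 40.7 in AT3G03680. In AT1G72600 the 2 peaks had 18.96 and 15.3, but both were nearest to an end of AT1G72610, so they do not mark its own 2 ends. HTR12, the centromeric histone H3 gene, had 51.6 and 10.6, GAPC2, a glyceraldehyde-3-phosphate dehydrogenase gene, had 12.7 and 19.6, GLT1 had 8.84 and 8.0, and AT1G01540 had 5.62 and 20.5. The higher score of a pair was 58.2 at most, below the scores of the strongest peaks described above. Another peak outside the gene within 500 bp of its end was present for 43 of the 982 genes (4.38%), against 4.35% of all protein-coding genes. A peak deeper inside was present for 30 (3.05%), against 2.07% of all protein-coding genes.

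Genes with a peak just inside an end were longer than protein-coding genes in general. Their median length was 2640.5 bp (quartiles 2021 and 3667 bp), against 2078 bp (1323 and 3030 bp) for all protein-coding genes. Such a peak was found in 1.31% (1.07 to 1.61%) of the genes in the shortest of 4 equal groups by length, in 2.58 and 4.81% of the middle groups and in 5.61% (5.09 to 6.19%) of the longest group. Every gene of 400 bp or more has the same length of DNA within 200 bp of its own ends, and 10 of the 990 peaks lay in a gene shorter than that. The nearest end could also be another gene's, as in 67 of the 990 peaks. How much such DNA genes of each length hold was not measured. The difference between the length groups was not tested.

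**Figure D3:**
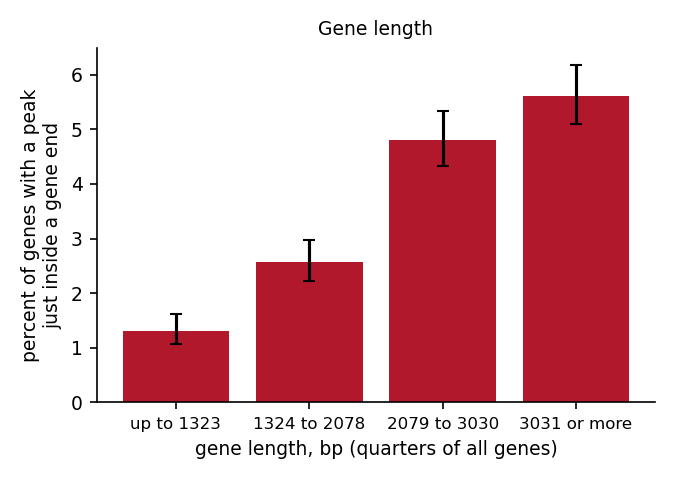
Percent of protein-coding genes that held a peak just inside a gene end, in 4 equal groups of genes from short to long (length in bp); bars start at 0 and the error bars are 95% Wilson intervals. The share is 1.31% in the shortest group and 5.61% in the longest.

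Genes of the mitotic cell cycle and of DNA replication often held a peak just inside a gene end. Over 4 lists together (mitotic cyclins and kinases, cytokinesis, replication, and cohesin, condensin and SMC5/6) 53 of 101 genes did (52.5%, 42.8 to 61.9%), against 3.58% of all protein-coding genes. A further 22 had no such peak but one outside the gene within 500 bp of an end, where the share over all genes was 4.2%. Another 6 had one only deeper inside and 20 had none of these, against 482 and 24828 of the 27444 protein-coding genes. Peaks outside genes were counted for every gene with an end within 500 bp, and 57 of the 1152 genes counted in this way also had a peak deeper inside. A gene with none of these can still lie near a peak whose midpoint is inside its neighbour. Of the 81 genes of these lists with a peak at any of these positions, 65.4% had it just inside an end, against 37.5% of the 2616 such genes overall. The 53 genes had a median score of 76.1, against 18.7 over the 982 genes, and 3 of the 53 lay below the median of all peaks of this kind. A score among the highest 293 of all peaks was reached in 32 of the 53 (60.4%), against 136 of the 990 peaks (13.7%). The midpoint was within 100 bp of an end in 43 of the 53 (81.1%), against 65.2% of the 990 peaks. Among all 66 of the 990 peaks with a score above 100 it was so in 52, so this closeness was not particular to these lists. In 3 of the 53 the nearest end belonged to another gene. Of the 8 lists, these 4 had the highest shares, and the regulator and histone lists below were not pooled with them. All were drawn up with earlier results of the same data known, so the counts are a description and no independent evidence.

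**Figure D4:**
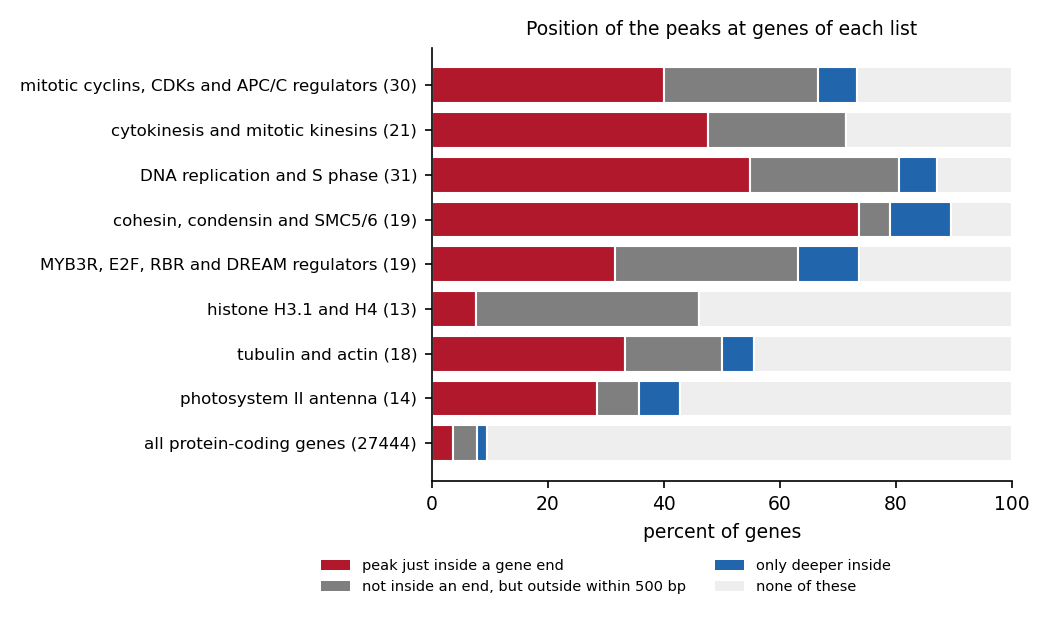
Percent of the genes of each list (number of genes in parentheses) with a peak just inside a gene end (red), with none there but a peak outside the gene within 500 bp of an end (grey), only deeper inside (blue) or none of these (pale); the bottom bar shows all 27444 protein-coding genes. Red spans 73.7% of the cohesin, condensin and SMC5/6 genes and 3.58% of all genes.

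In the list of mitotic cyclins, cyclin-dependent kinases (CDKs) and regulators of the anaphase-promoting complex (APC/C), 12 of 30 genes held such a peak (40.0%, 24.6 to 57.7%), with a median score of 78.4. After CYCA1;1 and TPX2 (chromosome 1, 951541 to 952139, midpoint 10.5 bp from the end) came CDKB1;1, a mitotic kinase, with 104.6, and CDC20.1, which activates APC/C, with 94.6. CYCB1;2 had 85.7 and CYCB1;4 had 81.99. TPX2 and the kinase genes AUR1, AUR2 and AUR3 were counted in this list, though they belong to none of the classes it is named for. All 12 scores were above the median of peaks just inside gene ends, the lowest being 27.8 in CYCA2;1. For 8 genes no peak lay just inside an end but one lay outside the gene, among them CYCB1;1, CDKB2;2, AUR1 and UVI4. CYCB1;1 to CYCB1;4 were therefore divided, with the peak outside the gene in CYCB1;1 and just inside it in the other members.

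Of the genes for cytokinesis and mitotic kinesins, 10 of 21 held a peak just inside an end (47.6%, 28.3 to 67.6%), with a median score of 87.9 and a lowest score of 43.97. AT2G28620 led the list. KINESIN-12B, a kinesin of the phragmoplast, had 130.9 (chromosome 3, 8518871 to 8519547) and AT4G14330 had 107.5. ATK5, a kinesin-14 of the spindle, had 98.8, HIK, a kinesin that activates the cytokinesis kinase cascade, 95.7, and MAP65-3 (PLE in the gene table), a bundler of microtubules in the phragmoplast, 80.05. The kinases of that cascade, ANP3 and MKK6, had 76.8 and 63.9, while no peak of the 3 kinds was counted for ANP1, ANP2 and MPK4. KNOLLE, the syntaxin of the cell plate, was among the 5 genes with a peak outside the gene and none just inside an end.

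Of the replication and S phase genes, 17 of 31 held such a peak (54.8%, 37.8 to 70.8%), with a median score of 105.5, and 9 of these scores were above 100, which a peak just inside an end reached in 0.24% of all protein-coding genes. CDC6 and TOPII (chromosome 3, 8624457 to 8624962) were followed by WEE1, a kinase that holds back CDKs, with 141.4, and RNR1, the large subunit of ribonucleotide reductase, with 140.6. PCNA2, a sliding clamp, had 130.9 and MCM6, a subunit of the replicative helicase, had 124.9 with its midpoint 14.5 bp from the end. The helicase genes differed in position: MCM2 and MCM6 had the peak just inside an end, MCM3, MCM4 and MCM5 outside the gene, and MCM7 only deeper inside. Origin recognition genes with such a peak were ORC1A, ORC1B, ORC4 and ORC6, with scores of 29.2, 108.4, 15.3 and 70.4.

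The complexes that hold and compact chromosomes held such a peak in 14 of 19 genes (73.7%, 51.2 to 88.2%), with a median score of 54.1. After AT3G57060 came ATSMC2 (AT3G47460), a condensin subunit gene, with 113.2, EMB2795 (AT2G32590) with 80.8 and MIM (SMC6B), a subunit of the SMC5/6 complex of DNA repair, with 76.1. SYN3, a cohesin subunit, had 71.5 and the second SMC2 gene (AT5G62410) had 60.1. Scores ranged down to 9.56 in SYN4, and 2 of the 14 lay below the median of all peaks just inside gene ends. Both SMC6 genes and SMC5 held such a peak, whereas the cohesin gene SMC1 had one only deeper inside and SMC3 (TTN7) had none. The count was 2 of 19 when the 605 peaks with a second gene's end within 1000 bp were left out, against 1.4% of all genes. In that setting the replication, mitotic and cytokinesis lists had 7 of 31, 6 of 30 and 5 of 21 genes.

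Of the regulators that include the MYB3R family itself, 6 of 19 genes held such a peak (31.6%, 15.4 to 54.0%), with a median score of 32.4. RBR1 had 263 (chromosome 3, 3918926 to 3919520, midpoint 136.5 bp from the end) and stood far above the rest. SOL1, a relative of TSO1, had 56.7, MYB3R4 had 32.8, E2FC (ATE2F2) had 31.97, E2FA (E2F3) had 18.8 and DPA, a partner of E2F proteins, had 17.4. Among the 5 MYB3R genes only MYB3R4 belonged here; MYB3R3 and MYB3R5 had a peak outside the gene, MYB3R1 only deeper inside, and MYB3R2 none of these. With the distance limited to 100 bp the count was 2 of 19, against 2.34% of all genes.

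**Figure D5:**
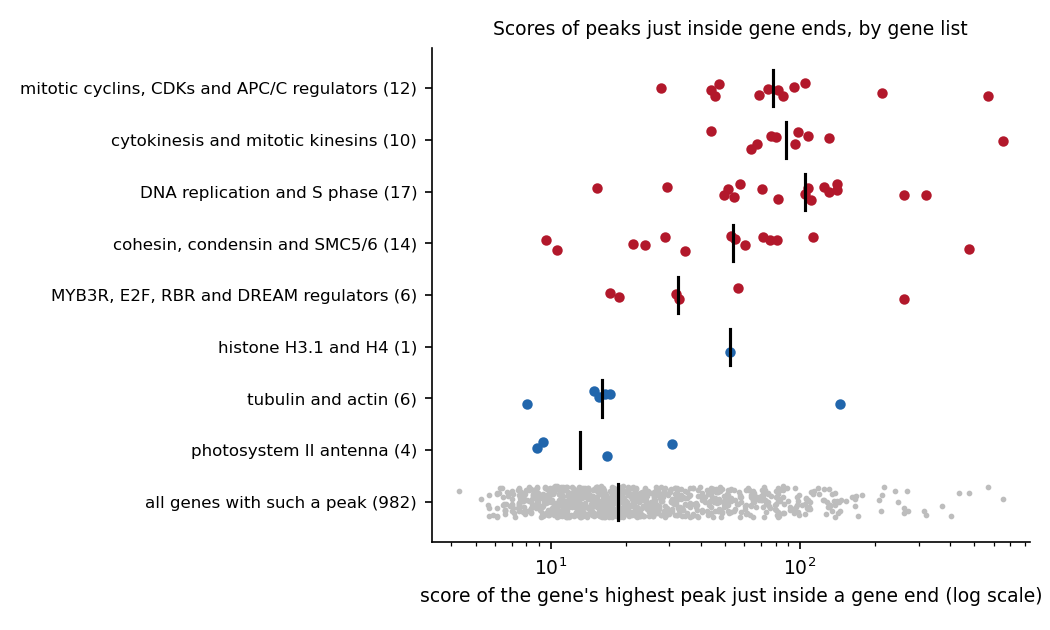
Score (log scale) of the highest peak just inside a gene end for each gene of 8 lists, with the number of genes in parentheses the median as a black line, cell cycle and regulator genes in red and histone, cytoskeleton and antenna genes in blue; the bottom row shows all 982 genes with such a peak. Medians lie at 78.4, 87.9, 105.5 and 54.1 in the lists of mitosis, cytokinesis, replication and chromosome complexes, and at 18.7 over all 982 genes.

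Of 13 genes for histones H3.1 and H4, AT1G09200, an H3.1 gene, had a peak just inside an end with a score of 52.5. The share just inside an end, 7.69%, had an interval of 1.37 to 33.3%, which includes the 3.58% of all genes. For 5 others there was none just inside but one outside the gene within 500 bp, against 4.2% of all genes. The other 7 had none of these. Near-identical copies among histone, tubulin and antenna genes can share reads, and the sources used here do not say how such reads were treated.

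Lists of tubulin, actin and photosynthesis genes also exceeded the 3.58% of all genes, but with low scores. Tubulin and actin genes held such a peak in 6 of 18 cases (33.3%, 16.3 to 56.2%), with a median score of 16.1. TUA2, an alpha-tubulin gene, reached 145.05, and TUB3 (17.4), ACT2 (16.5), TUA3 (15.7), TUA4 (14.9) and TUB1 (8.03) stayed below the median of peaks just inside gene ends. The tubulin and actin count was 1 with a limit of 100 bp, where 2.34% of all genes were counted, and 2 among the 1467 strongest peaks, where 1.97% were. Genes for the light-harvesting antenna of photosystem II held one in 4 of 14 cases (28.6%, 11.7 to 54.6%), with a median score of 13.1. In LHCB1.3 (CAB1 in the gene table, 30.8), LHCB3 (9.33) and LHCB1.5 (8.82) the nearest gene end belonged to the neighbouring gene, and in LHCB6 (16.9) to the gene itself. When genes were counted only by an own end within 200 bp of a midpoint, LHCB6 was the 1 antenna gene of 14, against 4.26% of all genes.

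The weakest peaks of this group were at the edge of what the list reports. The lowest scores were those of CDC27a (4.29), GGH3 (5.25), AT1G01540 (5.62) and ATI2 (5.63), followed by RAN3, AT5G02910 and AT3G07760, which tied at 5.64. CDC27a encodes a subunit of the anaphase-promoting complex, and its midpoint lay 191.5 bp from the end. The lowest score in the whole list was 4.13. Across the chromosomes, peaks just inside gene ends made up between 31.6% (chromosome 2) and 36.8% (chromosome 4) of all peaks, with overlapping intervals. They numbered 30.1 per 1000 protein-coding genes on chromosome 2 and 35.4 to 39.2 on the others. Of the 990 peaks, 494 lay at the end with the lower coordinate and 496 at the end with the higher one. The midpoint also lay in a long non-coding RNA gene in 17 cases, among them the peak in AT4G09060.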

How the data were processed

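The submitters' processing notes name TAIR10 as the build and MACS2 (no version), SAMtools 0.1.18 and Bowtie 0.12.7 as tools; the sources used here do not give their roles, the threshold or the use of the input. The deposited list gave each peak's start and end in bp, the other values used, and a score, a deposited value with no stated formula. The start counts from 0; printed coordinates count from 1.

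Genes came from a RefSeq table of TAIR10.1 (27444 protein-coding genes on 5 chromosomes), whose coordinates are not printed. Without a shift 33.8% of midpoints fell just inside gene ends, and 11.1 and 11.4% did after shifts of 5000 bp. A peak inside genes counted for the gene around its midpoint, and one outside for every gene with an end within 500 bp. The table has no strand or sequence, so the planned comparisons of 5′ ends and of motifs were not run.

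Peaks, 8 lists (165 genes, 141 of them named alike in the table) and the rules for naming genes were chosen with earlier results of these data known: the 20 strongest and 5 weakest peaks, up to 6 genes per list, the 2 peaks on each side of the threshold, with ties for these and for the weakest peaks included, and genes with 2 peaks. List genes without a peak just inside an end, other list genes and 4 further lists were picked once values had been seen. A locus without a symbol goes by its code. Assignment was tested on simulated data with peaks at known positions. For the 67 peaks nearest to another gene's end it was not tested. Nor was it for the 193 with ends of 2 or more genes within 200 bp. Calculations used SciPy 1.17.1, NumPy 2.4.6 and pandas 2.3.3 under Python 3.11.15, and matplotlib 3.10.9 drew the plots.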

Additional observations from a re-analysis of the deposited data

How the results depend on the processing

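Of 65 alternatives, 11 of them chosen after seeing the data, 42 stayed within 1.5 times a count or within the interval of the median, and 23 did not. The number of peaks was 645 with a limit of 100 bp, 1167 with 300 bp, 543 among the 1467 strongest peaks and 317 among the 733 strongest; it was 992 or 989 under other ways of treating a midpoint or start. The median score was 19.56 with 100 bp, just outside the interval of the reported median (17.62 to 19.55). Without peaks near a second gene's end, counts were 7 replication, 3 regulator, 2 cohesin, condensin and SMC5/6, 5 cytokinesis, 0 histone, 6 mitotic, 0 antenna and 3 tubulin and actin genes, against 1.4% of all genes. With any overlap of 1 bp there were 13 regulator, 3 histone and 21 mitotic genes, against 7.32% of all genes. With 100 bp there were 2 regulator, 1 antenna and 1 tubulin and actin gene, against 2.34% of all genes. The antenna count was 1 by own gene end (4.26% of all genes) and 1 among both the 1467 and the 733 strongest peaks (1.97 and 1.16% of all genes); tubulin and actin had 2 and 1 there. Fewer or more peaks enter by construction, and another cause was not tested. No paired analysis was possible because the ChIP was a single library, and leaving out a replicate was not possible either. Depth is unknown, so binding below the authors' threshold was not detectable.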

Other observations

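The 4 lists given here were chosen after the values were seen, and so their counts only describe the peaks. Of 14 genes for the spindle checkpoint and kinetochore, 9 held a peak just inside a gene end, against 3.58% of all protein-coding genes, with a median score of 48.7. Haspin, a histone H3 kinase, had 165.8, EB1C, a microtubule plus-end protein, 72.3, the centromere protein gene CENP-C 70.7 and HTR12 51.6. BUBR1, ESP (separase), BUB3.2, MAD2 and BUB3.1 followed with 48.7, 46.8, 36.3, 18.2 and 7.52. No peak inside the gene or outside it within 500 bp was counted for MAD1, MIS12, EB1A and EB1B.

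Of 28 genes with roles in meiosis, 16 held such a peak, against 3.58% of all protein-coding genes. Their median score was 31.5, in chromatin from whole seedlings. After ASY3 (chromosome 2, 19303926 to 19304542) came MMD1 with 80.2, DMC1, a recombinase of meiosis, with 61.5, AtSPO22 with 56.3, MLH3 with 55.2 and SPO11-2, a subunit of the complex that makes meiotic DNA breaks, with 47.4. No peak at these positions was counted for MSH4 and MUS81.

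DNA repair and damage response genes held such a peak in 18 of 30 cases, against 3.58% of all protein-coding genes, with a median score of 26.1. RPA70B and RPA70D, subunits of the single-strand binding protein, had 138.1 and 79.7, MSH6, a mismatch repair gene, had 106.2, and none at these positions was counted for KU70, KU80 and LIG4 of end joining. Genes of DNA methylation and chromatin maintenance held one in 13 of 26 cases, against the same 3.58%, with a median score of 29.2. MET1, the maintenance DNA methyltransferase, had 130.5 with its midpoint 45 bp from the end (chromosome 5, 19931946 to 19932371), HMGA had 86.01, MSI2 73.03, ASF1B, a histone chaperone, 61 and VIM1 43.98. CMT3 had 27.5 and ROS1 (DML1 in the gene table) had 23.9. No peak at these positions was counted for 10 genes of the list. These were DRM1, DRM2, DME, DML2, DML3, VIM2, VIM3, SUVH5, SUVH6 and ATXR5.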
